A study of Mus musculus with 3 samples.

Results

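The genes described here are 10 genes of vessel walls and extracellular matrix, measured by RNA sequencing in sorted LSK cells of the mouse fetal liver. They are Col4a1, Col4a2, Efemp2, Ltbp3, Cd248, Angpt2, Heg1, Efnb2, Gas6 and Vasn, taken by symbol from a fixed list of names, with an estimate of status OK in each library. All 10 were among the 1452 genes that could be compared, out of 38205 gene identifiers, and all 10 reached the minimum value of 1 in at least 1 library. The genes were chosen by name for their place in basement membrane, elastic fibre and endothelium, and selected on their log2 ratios across the genotypes of these same libraries. Those ratios are therefore a description of the genes and carry no test.

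LSK cells are negative for markers of mature blood lineages and positive for Sca1 and c-Kit, and include the stem cells and multipotent progenitors of blood. The homozygous library came from C57Bl/6 embryos with the DNMT3B7 transgene on 2 alleles, the hemizygous library from embryos with it on 1 allele, and the WT library from embryos with 0 such alleles, all at E14.5. DNMT3B7 is a shortened variant of DNMT3B, a methyltransferase that acts on DNA. Each library pooled the cells of 4 to 5 embryos of 1 genotype, and there was 1 library per genotype, so nothing below has a replicate check and each ratio compares libraries. The promoter that drives the transgene is not given in the sources used here, and its expression was not analysed here.

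Basement membranes are thin sheets of collagen IV, laminin, nidogen and perlecan under endothelium and around pericytes. Elastic fibres, built of elastin on a fibrillin scaffold, give larger vessels their recoil, and latent TGF-beta binding proteins hold TGF-beta in that scaffold. Endothelial cells and pericytes signal to each other through angiopoietins and ephrins. In the fetal liver, vessels, stellate cells and hepatoblasts surround the blood progenitors, so transcripts of these genes in a blood cell sort may come from the progenitors or from cells carried along with them, which bulk libraries do not tell apart. Likewise, fewer cells of a type and less RNA per cell cannot be told apart.

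Values are deposited FPKM (fragments per kilobase of transcript, relative to the fragments of the library) divided by 4245 in all libraries, called rescaled FPKM. Taking each gene at the median length of its transcripts, the low values implied 2327960 fragments on listed genes in the homozygous, 3028420 in the hemizygous and 3032470 in the WT library. A value of 1 was added before taking log2 ratios, so that differences of low genes are understated, and a gene counted as higher or lower when that ratio reached 1 in size, a 2-fold difference. Plain ratios, without the added 1, are given with an exact 95% counting interval (Clopper-Pearson on the shares of estimated fragments), which covers neither embryos nor library making. The share of mitochondrial mRNAs among the fragments on compared genes depended on the length taken. At the median length it was 51.7% in the homozygous, 60.6% in the hemizygous and 64.4% in the WT library. Fragments estimated from longest transcripts gave 29.7%, 37.2% and 41.8% in the same order. The part of these mRNAs in the ratios below was not tested. Sum scaling, which gives every library an equal total of values, moved the median log2 ratio of all compared genes by 0.40 for homozygous versus WT, 0.14 for hemizygous versus WT and 0.27 for homozygous versus hemizygous. Many constitutive genes were listed at 0. Genes were therefore compared only in 10 segments at chromosome starts, where more coding genes had high values, and in the mitochondrial genome. The chromosome 16 segment held 551 of the 584 coding genes fitted there, against at most 141 in each other segment. The background of compared genes is therefore uneven across chromosomes. The annotation behind the values is not given in the sources used here, nor is its build, so it could not be checked directly that each value belongs to the gene it is listed under. Both comparisons with WT share the WT library.

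The promoters of the collagens, Efemp2, Vasn and Ltbp3 are shown. The collagens, Efemp2 and Vasn were higher in both transgenic libraries, as were Heg1 and Gas6, whose promoters are not shown. At the median transcript length the counting intervals of Ltbp3 include 1, as do those of the collagens and Gas6 for hemizygous over WT. Promoters are given because DNMT3B, of which the transgene encodes a shortened variant, methylates cytosine in CpG. Whether the variant does so was not tested here. RefSeq (build GRCm38.p6, which is not the mm9 build named for the files) listed 10 gene starts for 8 of the genes, Col4a1, Col4a2, Efemp2, Efnb2, Gas6, Heg1, Ltbp3 and Vasn, with 250 bases before and 50 after each start. Each sequence is printed 5′ to 3′ on the strand of its gene with CpG in capitals. Col4a1 lies on the minus strand at chr8:11312777-11313076 and Col4a2 on the plus strand at chr8:11312555-11312854. Efemp2 has starts at chr19:5473696-5473995 and chr19:5474485-5474784, and Ltbp3 lies at chr19:5740650-5740949 and Vasn at chr16:4639695-4639994, all on the plus strand.
Col4a1: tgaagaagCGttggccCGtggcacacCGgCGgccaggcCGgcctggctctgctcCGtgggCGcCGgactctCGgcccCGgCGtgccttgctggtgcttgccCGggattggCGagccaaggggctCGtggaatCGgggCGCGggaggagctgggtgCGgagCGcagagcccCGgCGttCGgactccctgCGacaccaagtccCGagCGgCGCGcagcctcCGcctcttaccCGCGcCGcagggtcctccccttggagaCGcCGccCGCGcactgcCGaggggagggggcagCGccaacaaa
Col4a2: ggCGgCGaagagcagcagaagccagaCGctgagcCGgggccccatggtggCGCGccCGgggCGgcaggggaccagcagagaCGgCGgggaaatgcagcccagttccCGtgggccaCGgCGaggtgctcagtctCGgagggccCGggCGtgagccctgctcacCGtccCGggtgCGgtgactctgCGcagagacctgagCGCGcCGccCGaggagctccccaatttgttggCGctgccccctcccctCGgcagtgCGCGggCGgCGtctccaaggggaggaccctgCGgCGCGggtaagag
Efemp2, first start: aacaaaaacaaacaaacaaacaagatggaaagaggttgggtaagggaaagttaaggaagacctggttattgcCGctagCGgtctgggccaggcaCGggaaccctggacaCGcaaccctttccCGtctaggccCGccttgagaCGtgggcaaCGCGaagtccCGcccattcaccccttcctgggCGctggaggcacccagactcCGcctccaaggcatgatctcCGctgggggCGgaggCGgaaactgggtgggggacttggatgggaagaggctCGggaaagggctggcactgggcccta
Efemp2, last start: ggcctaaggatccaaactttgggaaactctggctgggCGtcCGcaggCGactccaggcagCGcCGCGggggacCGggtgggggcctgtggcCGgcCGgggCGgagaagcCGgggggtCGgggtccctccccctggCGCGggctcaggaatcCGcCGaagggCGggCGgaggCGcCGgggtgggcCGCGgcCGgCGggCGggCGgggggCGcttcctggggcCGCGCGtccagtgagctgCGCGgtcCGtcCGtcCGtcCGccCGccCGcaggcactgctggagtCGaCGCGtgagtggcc
Ltbp3: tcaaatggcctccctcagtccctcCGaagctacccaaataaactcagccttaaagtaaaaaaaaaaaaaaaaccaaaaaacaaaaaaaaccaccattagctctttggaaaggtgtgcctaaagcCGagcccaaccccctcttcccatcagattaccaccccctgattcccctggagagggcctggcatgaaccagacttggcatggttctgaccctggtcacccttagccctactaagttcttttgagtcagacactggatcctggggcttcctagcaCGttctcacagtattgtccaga
Vasn: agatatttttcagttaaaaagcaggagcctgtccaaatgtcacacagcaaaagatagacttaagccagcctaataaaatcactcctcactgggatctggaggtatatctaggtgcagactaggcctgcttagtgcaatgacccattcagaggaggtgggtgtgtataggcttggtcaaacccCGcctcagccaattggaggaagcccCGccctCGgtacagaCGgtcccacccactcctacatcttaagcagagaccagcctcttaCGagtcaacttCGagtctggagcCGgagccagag

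The windows of the genes shown ranged from CpG-poor to CpG-dense. Those of Gas6, Heg1 and Efnb2, which are not shown, all lay above the median over all windows. Ltbp3 held 3 CpG, Vasn 7, Gas6 17, Heg1 25, Col4a2 33, Efnb2 35 and Col4a1 37, and the starts of Efemp2 held 16, 35 and 41. The median over 32851 windows of 27025 genes was 7, and 8 of the 10 windows lay above it. The windows of the second and last starts of Efemp2 overlap for most of their length. The starts of Col4a1 and Col4a2 were 21 bases apart on opposite strands, so their windows shared 78 bases. The motif GGGCGG, known as the GC box bound by Sp1, was present on either strand in 9 of the 10 windows, the exception being Ltbp3, and in 35.7% of all windows. The motif TATAAA was found on either strand in 1 of them, that of Efnb2, and in 13.6% of all windows. DNA methylation itself was not measured.

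**Figure D1:**
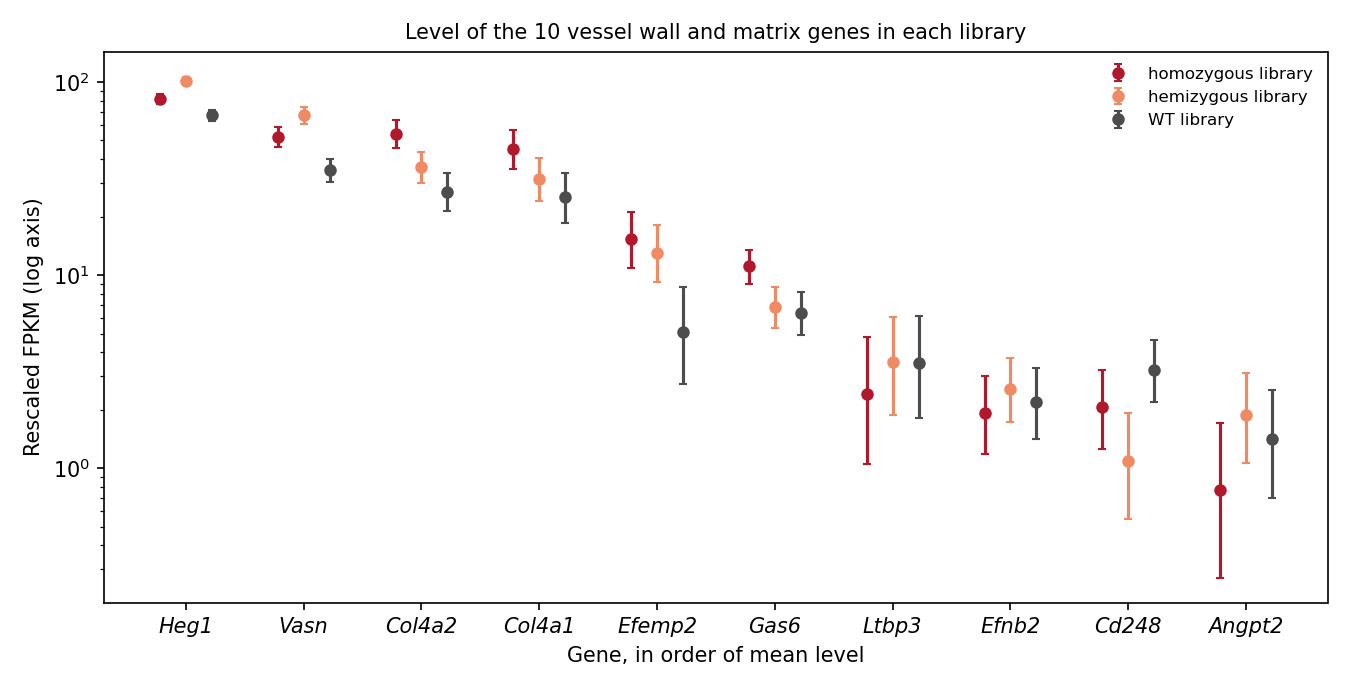
Rescaled FPKM (log axis) of each gene in the homozygous, hemizygous and WT libraries, with points for the value of each single library and bars for the 95% counting interval. Heg1 is highest in each library, at 82.1, 102 and 67.6, and Angpt2, Cd248, Efnb2 and Ltbp3 lie below 4 in all of them.

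In level, which FPKM gives per length, the genes fell into a higher set and a lower set in every library. Heg1 led in each library. It was followed by Vasn, Col4a1 and Col4a2, with 45.2 to 54.1 in the homozygous, 31.7 to 67.6 in the hemizygous and 25.5 to 35.0 in the WT library. Against the 957 nuclear genes compared, these 4 genes stood between the 37.4th and the 62.5th percentile of level over the 3 libraries. Efemp2 and Gas6 came next, and Ltbp3, Cd248, Efnb2 and Angpt2 last, at or below the 15.6th percentile in each library. Neighbours within the last set were not separated, since their counting intervals overlapped in each library. At the median transcript length Col4a1 and Col4a2 overlapped in each library. Vasn overlapped both collagens in the homozygous and WT libraries, and so did Gas6 and Efemp2 overlap each other. The last set was not fully apart from the genes above it. Ltbp3 overlapped Gas6 in the hemizygous and WT libraries, and Efemp2 overlapped Ltbp3, Cd248 and Efnb2 in the WT library.

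The basement membrane collagens shared 1 order across the genotypes, highest in the homozygous and lowest in the WT library. Col4a1 and Col4a2 encode the alpha1 and alpha2 chains, which join into the collagen IV trimer of most basement membranes. Col4a1 (ENSMUSG00000031502, chromosome 8) was at 45.2 in the homozygous, 31.7 in the hemizygous and 25.5 in the WT library. Col4a2 (ENSMUSG00000031503) was at 54.1, 36.4 and 27.1 in the same order.

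For homozygous over WT the plain ratio was 1.77 for Col4a1 (95% counting interval 1.22 to 2.61) and 1.99 for Col4a2 (1.51 to 2.65). The log2 ratios of value + 1 were 0.80 and 0.97, just short of the size rule. Among compared genes the ratio of Col4a2 stood at the 97.8th percentile. For hemizygous over WT the plain ratios were 1.24 (0.834 to 1.87) and 1.34 (0.996 to 1.81), intervals that include 1. Both intervals excluded 1 when fragments were taken from the longest transcript, at 1.12 to 1.38 and 1.21 to 1.48. For homozygous over hemizygous they were 1.43 (1.01 to 2.03) and 1.49 (1.16 to 1.92).

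The level of Col4a1 relative to Col4a2 was 0.835 in the homozygous, 0.872 in the hemizygous and 0.939 in the WT library. With the median transcript length, the counting intervals of both genes overlapped in each library. The annotated exons of the pair overlap by 22 bases on opposite strands, and neither shares a 50-base stretch with another gene. Rab20, the next coding gene on 1 side, was at 4.997, 6.58 and 6.57 in the homozygous, hemizygous and WT libraries. Irs2, an insulin receptor substrate on the other side, was at 15.98, 12.4 and 11.1. Neither neighbour reached the size rule in any comparison.

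Efemp2 had the largest log2 ratios to WT of the 10 genes on the deposited scale. It encodes fibulin-4, which recruits the enzyme lysyl oxidase to elastin and is needed for elastic fibres in mice. Efemp2 (ENSMUSG00000024909, chromosome 19) was at 15.5 in the homozygous, 13.1 in the hemizygous and 5.10 in the WT library. Both transgenic libraries were well above the WT library and close to each other. The log2 ratios were 1.43 for homozygous versus WT and 1.21 for hemizygous versus WT, both past the size rule, and 0.22 for homozygous versus hemizygous. The hemizygous ratio fell short at 0.84 with a pseudocount of 5 and at 0.998 with median-ratio factors from all listed genes. The plain ratios were 3.03 (95% counting interval 1.59 to 6.15), 2.58 (1.34 to 5.25) and 1.18 (0.729 to 1.91).

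These values rested on few fragments and on the lengths taken. With the median of its 17 annotated transcripts, 848 bases, Efemp2 had an estimated 38.6 fragments in the homozygous, 36.3 in the hemizygous and 13.3 in the WT library. With the longest transcript, 2634 bases, the estimates were 145, 136 and 49.97, and the intervals narrowed to 2.19 to 4.27 and 1.85 to 3.64. Its exons overlap those of Mus81, a nuclease subunit encoded on the opposite strand, by 173 bases, and the strand setting is not given in the sources used here. Mus81 was at 103 in the homozygous, 117 in the hemizygous and 133 in the WT library, and so ran the other way. Cfl1, the next coding gene, had log2 ratios of -0.07 and -0.17 to WT.

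Vasn and Ltbp3 are the other genes tied to TGF-beta. Vasn encodes vasorin, a membrane protein of vascular smooth muscle that binds TGF-beta. Vasn (ENSMUSG00000039646, chromosome 16) was at 52.1 in the homozygous, 67.6 in the hemizygous and 35.0 in the WT library. The hemizygous library was highest and the WT library lowest, and the 3 counting intervals did not overlap, at 46.2 to 58.6, 61.1 to 74.5 and 30.3 to 40.3. The plain ratio was 1.49 (1.24 to 1.79) for homozygous over WT, 1.93 (1.62 to 2.30) for hemizygous over WT and 0.771 (0.660 to 0.901) for homozygous over hemizygous.

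Vasn lies within Coro7, a gene of the Golgi and actin system on the opposite strand, without shared exon bases, and its exons overlap those of Dnaja3 by 160 bases on the same strand. Coro7 was at 623 in the homozygous, 749 in the hemizygous and 697 in the WT library, and Dnaja3, a mitochondrial chaperone, at 288, 263 and 262. Both were several times more abundant than Vasn, and their log2 ratios to WT lay between -0.16 and 0.14. Of the 50-base stretches of Vasn, 3.89% occur in Dnaja3.

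Ltbp3 encodes a latent TGF-beta binding protein that carries TGF-beta into the matrix. Ltbp3 (ENSMUSG00000024940, chromosome 19) was at 2.44 in the homozygous, 3.56 in the hemizygous and 3.52 in the WT library. The plain ratio of homozygous over WT, 0.693, had a counting interval of 0.245 to 1.85, and that of hemizygous over WT, 1.01, one of 0.424 to 2.43. The first interval ended at 0.997 with the longest transcript.

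The ligands and membrane proteins of vessel signalling are Heg1, Gas6, Angpt2 and Efnb2. Heg1, an endothelial transmembrane protein that binds the CCM protein Krit1 and is needed for vessel and heart wall integrity in mice, had the most fragments. Heg1 (ENSMUSG00000075254, chromosome 16) was at 82.1 in the homozygous, 102 in the hemizygous and 67.6 in the WT library. The counting intervals of the 3 libraries were apart, at 77.2 to 87.3, 96.5 to 107 and 63.2 to 72.2. The plain ratio was 1.21 (1.11 to 1.33) for homozygous over WT, 1.51 (1.38 to 1.64) for hemizygous over WT and 0.807 (0.744 to 0.875) for homozygous over hemizygous, all within the size rule. Krit1 itself was at 70.2, 69.9 and 62.5. The antisense gene Gm15657, which shares 318 exon bases with Heg1, was at 13.5, 13.5 and 9.08.

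Gas6, the vitamin K-dependent ligand of the receptors Axl, Tyro3 and Mertk, was highest in the homozygous library. Gas6 (ENSMUSG00000031451, chromosome 8) was at 11.1 in the homozygous, 6.84 in the hemizygous and 6.41 in the WT library. The hemizygous and WT libraries were close, with a plain ratio of 1.07 (0.744 to 1.53), and the homozygous library stood above WT by 1.74-fold (1.25 to 2.43) and above hemizygous by 1.63-fold (1.19 to 2.25). It has a single annotated transcript, so its 101, 68.4 and 60.6 estimated fragments did not depend on a choice of transcript. Pros1, which encodes protein S, the other ligand of these receptors, was at 15.7, 19.0 and 17.1 in the homozygous, hemizygous and WT libraries. The log2 ratio for homozygous versus WT was 0.71 for Gas6 and -0.12 for Pros1.

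Angpt2 and Efnb2 were near the lower limit of what could be measured. Angpt2, the angiopoietin that antagonises Tie2 signalling in endothelium, was at 0.771 in the homozygous, 1.90 in the hemizygous and 1.41 in the WT library (ENSMUSG00000031465, chromosome 8). Those values stand for an estimated 5.65, 15.4 and 10.9 fragments, and the counting interval of the plain ratio of homozygous over WT ran from 0.160 to 1.64. Angpt2 is the last coding gene but 1 of its chromosome 8 segment and lies in Mcph1, a chromosome condensation gene at 104, 92.5 and 87.4, with no shared exon bases. Efnb2, the ephrin that marks arterial endothelium, was at 1.95 in the homozygous, 2.59 in the hemizygous and 2.22 in the WT library (ENSMUSG00000001300, chromosome 8). Its plain ratios of 0.877 (0.456 to 1.67) and 1.17 (0.652 to 2.10) to WT were within counting error.

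Cd248, or endosialin, is a surface protein of pericytes and stromal fibroblasts. Cd248 (ENSMUSG00000056481, chromosome 19) was at 2.09 in the homozygous, 1.09 in the hemizygous and 3.25 in the WT library. It was the gene of the 10 that was highest in the WT library. The hemizygous library was lower than WT by the size rule, with a log2 ratio of -1.02 and a plain ratio of 0.335 (0.153 to 0.682). It did not pass under nuclear sum scaling, at -0.99, under sum scaling, at -0.90, or with a pseudocount of 5, at -0.44, and was not measured at a minimum value of 5. The single annotated transcript had an estimated 19.3, 11.2 and 31.5 fragments. The plain ratio of homozygous over WT was 0.641 (0.344 to 1.17), which includes 1.

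**Figure D2:**
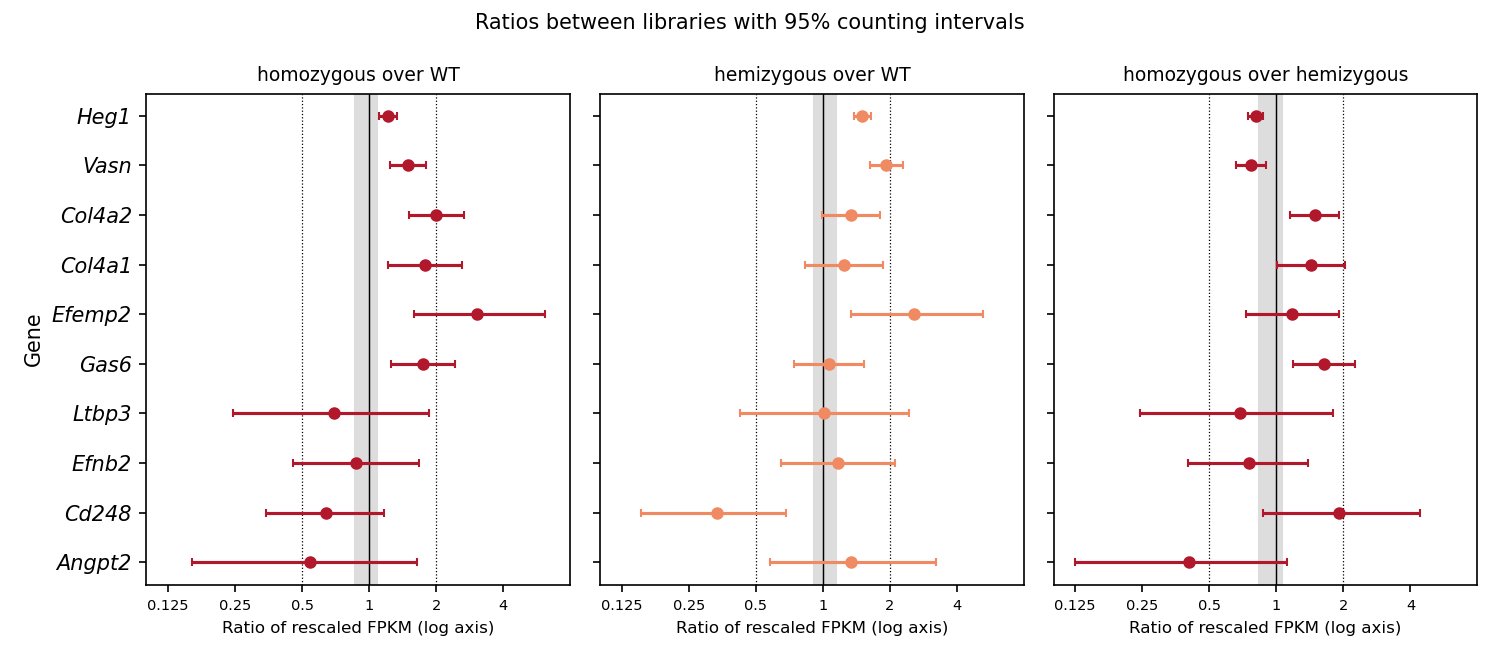
Plain ratio of rescaled FPKM between libraries (log axis) for each gene, homozygous over WT, hemizygous over WT and homozygous over hemizygous, with bars for the 95% counting interval, a grey band from the lower to the upper quartile of all compared genes and dotted lines at 0.5 and 2. Efemp2 stands at 3.03 and 2.58 over WT and Cd248 at 0.335 in hemizygous over WT, and the bars of Angpt2 and Ltbp3 span 1 in all panels.

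Counted together, few of the 10 genes passed the size rule. For homozygous versus WT 1 of 10 passed, Efemp2 as higher, where 4.4% of 955 compared genes passed in either direction, 2.09% as higher and 2.3% as lower. For hemizygous versus WT 2 of 10 passed, Efemp2 as higher and Cd248 as lower, where 2.73% of 954 genes passed, 1.78% as higher and 0.943% as lower. For homozygous versus hemizygous 0 of 10 passed, where 4.57% of 962 genes did, 1.66% as higher and 2.91% as lower. A log2 ratio above 0 was found for 6 of 10 genes in homozygous versus WT, 9 of 10 in hemizygous versus WT and 5 of 10 in homozygous versus hemizygous, where 43.8%, 54.1% and 39.1% of compared genes lay above 0. Under sum scaling the compared genes split into 44 higher and 11 lower for homozygous versus WT, in place of 20 and 22. The genes were chosen with these ratios known, so nothing is read from the shares.

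The ratios of the 10 genes to WT sat above those of the compared genes at the median. The genes were selected on these ratios, so this paragraph is a description and carries no test. The median log2 ratio of the 10 was 0.42 for homozygous versus WT, 0.28 for hemizygous versus WT and -0.03 for homozygous versus hemizygous. Over all compared genes it was -0.04, 0.02 and -0.06. For homozygous versus WT the 10 ranged from -0.46 for Cd248 to 1.43 for Efemp2. The counting interval of the plain ratio excluded 1 for 6 of 10 genes in that comparison, all higher in the homozygous library, namely Col4a1, Col4a2, Efemp2, Heg1, Gas6 and Vasn, where it did for 32.1% of 955 compared genes. It did so for 4 of 10 in hemizygous over WT, Efemp2, Heg1 and Vasn as higher and Cd248 as lower, against 30.8% of compared genes. For homozygous over hemizygous it did so for 5 of 10, against 29.1%. With the longest transcript the counts were 7, 6 and 7 of 10, against 46.6%, 44.4% and 42.4% of compared genes.

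The 10 genes did not share 1 pattern across the genotypes. By their values alone, Col4a1, Col4a2, Efemp2 and Gas6 were highest in the homozygous library and followed the number of transgenic alleles. That order was held by 13.3% of 970 compared genes, while 20.3% had the opposite order, as did 0 of the 10. At the median transcript length the counting interval of hemizygous over WT included 1 for Col4a1, Col4a2 and Gas6. For Efemp2 that of homozygous over hemizygous included 1, at 0.729 to 1.91. With the longest transcript both steps excluded 1 for the collagens, but not for Efemp2 or Gas6. Heg1, Vasn, Efnb2, Ltbp3 and Angpt2 were highest in the hemizygous library, as were 40.5% of compared genes, and 24.6% were highest in the homozygous and 34.8% in the WT library. Under sum scaling the same 4 genes followed the number of alleles, but so did 54.7% of compared genes. With median-ratio factors from all listed genes, Gas6 left that order, with a log2 ratio of -0.13 for hemizygous versus WT. Ltbp3 was nearly level between the hemizygous and WT libraries, and its log2 ratio turned to -0.01 under median-ratio scaling and to -0.17 with factors from all listed genes, where that of Efnb2 turned to -0.01. The summed values of the 10 were 267 in the homozygous, 267 in the hemizygous and 177 in the WT library. Without the collagens the sums were 168, 198 and 124.6, with the hemizygous library highest.

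**Figure D3:**
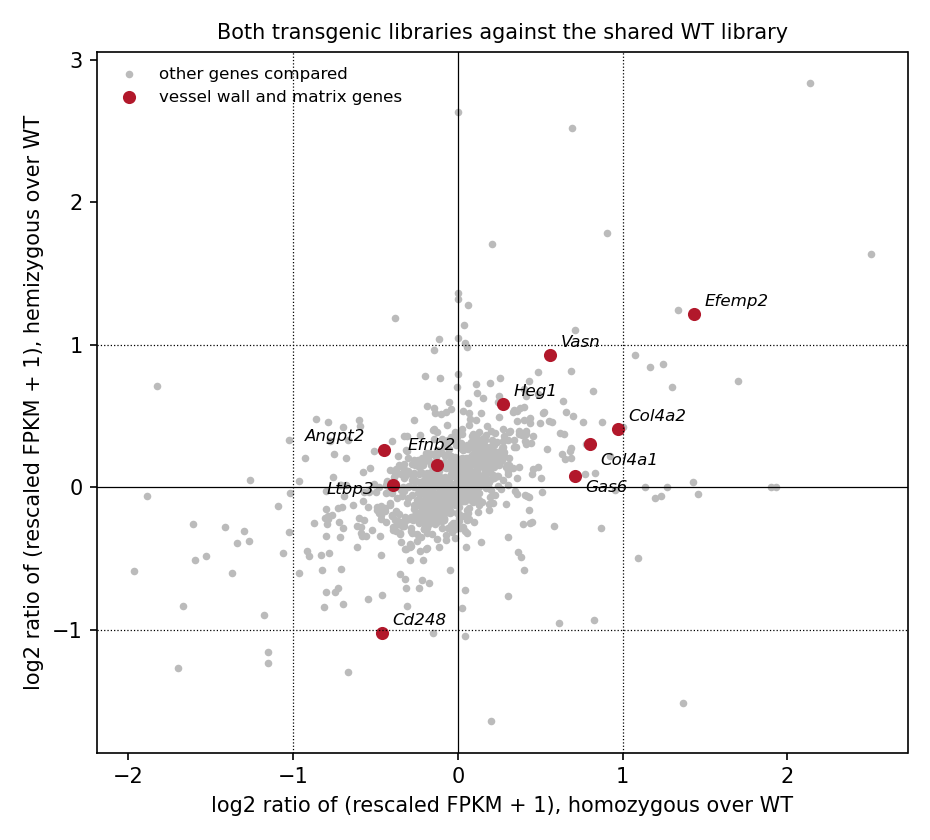
Log2 ratio of rescaled FPKM + 1 for homozygous over WT (horizontal) and hemizygous over WT (vertical), 1 point per compared gene, with the 10 genes in red and dotted lines at the size rule. Both axes share the WT library, so an error in it moves a gene along the diagonal. Efemp2 lies past the rule on both axes at 1.43 and 1.21, the collagens and Gas6 lie to the right, and Vasn and Heg1 lie higher on the vertical axis than on the horizontal one.

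Genes near the median pair of log2 ratios of the 10 genes were sought among 640 other compared genes with a mean value of at least 20. That pair was 0.42 for homozygous versus WT and 0.28 for hemizygous versus WT. It is a summary and not the pattern of any single gene of the 10, which did not share a pattern. By distance from it, the nearest were Cyp51, an enzyme of cholesterol synthesis, and Txnrd2, a mitochondrial thioredoxin reductase. The others were the transcription factor gene Bbx, the secreted glycoprotein gene Fstl1 and the gene model Gm6493. Fstl1 was at 94.9 in the homozygous, 90.9 in the hemizygous and 74.7 in the WT library. The distances ran from 0.04 to 0.09 on the log2 scale over 3 libraries.

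The pathways around these genes could be read only in small part. Beside the 10 genes themselves, 0 of 32 other basement membrane genes, 0 of 25 of elastic fibres and TGF-beta storage, 0 of 11 of TGF-beta signalling and 0 of 11 of the angiopoietin pathway lay in the segments compared. Of 19 other ephrin pathway genes 2 lay there, Ephb3 and Epha3, and neither reached a value of 1. Of 6 other genes of the Gas6 receptors and 10 of the CCM complex 1 each lay there, Pros1 and Krit1. Of 23 stromal matrix genes 2 lay there, and Adamts1, a matrix protease, was at 0.718 in the homozygous, 0.399 in the hemizygous and 1.36 in the WT library. None of the other pathway genes measured passed the size rule, namely Pros1, Krit1 and Adamts1.

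Markers of the cells that a sort could carry along were covered as thinly. Of 29 endothelial markers 2 lay in the segments, the tight junction gene Cldn5 and the junction adhesion gene Jam2. Their summed value was 3.44 in the homozygous, 3.01 in the hemizygous and 2.86 in the WT library. They did not share an order, with Cldn5 at 2.14, 1.93 and 1.63 and Jam2 at 1.30, 1.08 and 1.23. They rested on few fragments, an estimated 6.49 for Jam2 in the hemizygous library. Of the 27 others 13, Cdh5 among them, were listed at 0 in all libraries, which for genes outside the segments says nothing about expression. Cd248 was the only one of 18 pericyte and stellate cell markers in the segments. Of 12 smooth muscle and fibroblast markers Mylk was at 3.80, 3.53 and 3.79, and Myh11 stayed below 1.

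Among 17 hepatoblast and hepatocyte markers 4 lay in the segments. Ahsg and Kng1 summed to 4.81 in the homozygous, 3.82 in the hemizygous and 4.27 in the WT library. Ahsg was nearly level, at 3.67, 3.49 and 3.70 in that order. Kng1 was at 1.15, 0.328 and 0.570, on an estimated 7.54, 2.39 and 3.93 fragments. Fetub and Hrg were listed at 0 in all libraries. Among 11 megakaryocyte markers Gp5 and Gp1bb summed to 34.9, 20.8 and 21.999, but went different ways. Gp5 was at 30.1 in the homozygous, 17.7 in the hemizygous and 16.5 in the WT library, and Gp1bb at 4.76, 3.09 and 5.50. Of 13 erythroid markers 4, Car2, Tfrc, Cpox and Car1, summed to 3285, 4012 and 3987, mostly from Car2 and Tfrc. Car2, Tfrc and Cpox were lowest in the homozygous library. Car1 was highest there, at 76.7 against 65.0 in the hemizygous and 64.7 in the WT library. Of 12 macrophage markers 0 lay in the segments. The part of these cells in the values of the 10 genes was not tested. Of the 11 LSK markers Runx1 alone lay in the segments, so Sca1 and c-Kit could not be checked.

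**Figure D4:**
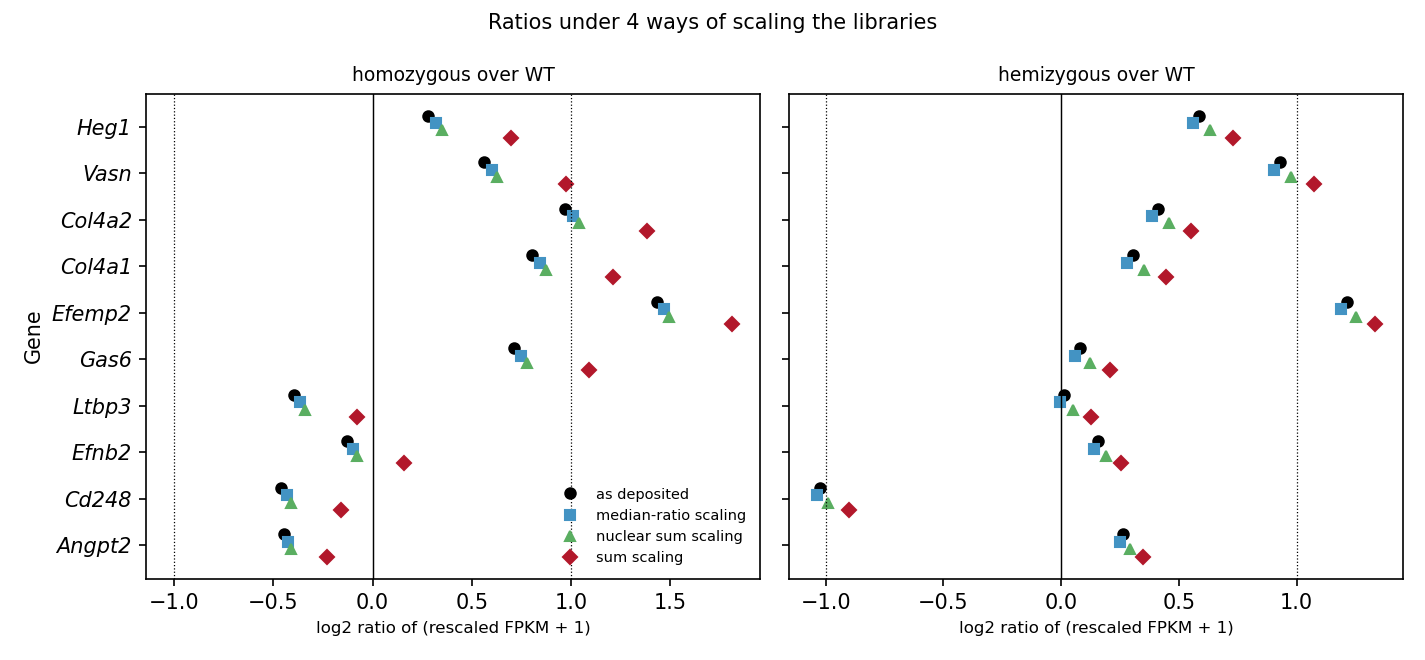
Log2 ratio of rescaled FPKM + 1 for each gene, homozygous over WT and hemizygous over WT, under the deposited scale and 3 other scalings, with dotted lines at the size rule. Sum scaling moves all ratios to the right, taking Col4a1, Col4a2 and Gas6 past 1 for homozygous over WT, while Efemp2 stays past 1 in each scaling drawn.

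The scale of the libraries decided which collagen genes passed the rule. Col4a2 reached log2 ratios of 1.01 for homozygous versus WT under median-ratio scaling, 1.04 under a nuclear sum and 1.38 under sum scaling. Col4a1 reached 1.21 and Gas6 1.09 under sum scaling only. Relative to the median of all compared genes, Col4a2 stood at 1.01 on the deposited scale and 1.03 under sum scaling, and Col4a1 at 0.85 and 0.86. Efnb2 turned from -0.13 to 0.16 for homozygous versus WT under sum scaling. Vasn reached 1.07 and Cd248 -0.90 for hemizygous versus WT under sum scaling, so that these genes changed sides of the rule.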

How the data were processed

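The deposited values were FPKM per gene with a status, per the file headers, made with TopHat2, Bowtie2 and Cufflinks on mm9, per the submitters' processing notes, and the annotation is not given in the sources used here, nor is its build or the strand setting, so the match of values to gene names was not checked directly. FPKM were divided by 4245 in all 3 libraries, and the highest row per identifier was kept. Many constitutive genes were listed at 0, so genes were compared only in chromosome segments where more coding genes had high values. A break per chromosome was fitted by maximum likelihood on the share of coding genes whose deposited FPKM averaged 200000 or more. It was kept at a gain of at least 5 and a share of at least 25% before it, which gave 10 segments beside the mitochondrial genome. The condition on the share was added after seeing the fits, and without it other chromosomes also gave breaks. Gene models came from GENCODE M21 (95.4% of identifiers matched), and no positions from it are given.

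Low values times transcript length, less a fragment length of 200, were whole multiples of 1 unit within 0.05 for 70.7%, 68.2% and 70.5% of values in the homozygous, hemizygous and WT libraries. That unit gave the fragments and counting intervals. With the longest transcript the totals were 4829500, 5966170 and 5688970, an alternative added after seeing the data. No test was possible with 1 library per genotype. The share of all compared genes whose counting interval excludes 1 was added after seeing the data. A gene counted as measured once either library of a pair reached 1. The 10 genes, the lists of pathways and markers and the segment rule were chosen with earlier results of these data known. The rule named all 10 genes, list genes that reached a value of 1, and the 5 genes nearest to the median pair of log2 ratios of the 10. Genes named beside these were overlapping or adjacent genes, with or without shared exon bases, or were listed at low values. Software was Python 3.11.15, numpy 2.4.6, pandas 2.3.3 and scipy 1.17.1, and scripts were tested on simulated data. The values of 1 gene beside the 10 are not reported here.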

Additional observations from a re-analysis of the deposited data

How the results depend on the processing

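No paired analysis was possible because each genotype has 1 library. Beside the deposited scale, the results were recomputed with pseudocounts of 0.1 and 5, 3 scalings, other minimum values, summed rows, all listed genes, and, chosen after seeing the data, median-ratio scaling over all listed genes. No ratio of a gene past the size rule changed sign. For homozygous versus WT, 1 gene passed the rule as reported, 4 under sum scaling, and 2 each under median-ratio and nuclear sum scaling. For hemizygous versus WT, 2 passed as reported, 0 with a pseudocount of 5, and 1 each under nuclear sum scaling, a minimum value of 5 and median-ratio scaling over all listed genes, where Efemp2 lay at 0.998. For homozygous versus hemizygous, 0 passed as reported and 1, Angpt2, with a pseudocount of 0.1. The median log2 ratio moved to 0.83 for homozygous versus WT and 0.22 for homozygous versus hemizygous under sum scaling, to 0.76 and 0.36 at a minimum value of 5, which left 6 genes, and to 0.17 for homozygous versus hemizygous under median-ratio scaling over all listed genes. For hemizygous versus WT it went to 0.50 at a minimum value of 5 and 0.09 under median-ratio scaling over all listed genes, against 0.28 as reported. Of 30 single ratios, 6 moved beyond counting error under sum scaling and 3 under the added scaling. Sum scaling split the compared genes into 20 higher and 6 lower for hemizygous versus WT (17 and 9 as reported) and 31 and 16 for homozygous versus hemizygous (16 and 28), and the added scaling into 12 and 14, and 24 and 14. With a pseudocount of 5 only 1 was higher and 9 lower for homozygous versus WT. With all genes listed, 7074 genes in place of 955 entered the background for homozygous versus WT, and 6.96% were higher and 6.09% lower. For hemizygous versus WT 11% of 7550 were higher and 3.11% lower, and for homozygous versus hemizygous 3.72% of 7599 and 10.7%. The median log2 ratio of that background was 0.20 for hemizygous versus WT. Ltbp3, Efnb2, Gas6 and Cd248 lay below it. Values below about 4 rest on few fragments, and differences of Angpt2, Ltbp3 and Efnb2 were not detectable at this depth, except that with the longest transcript the interval of Ltbp3 excluded 1 for homozygous over WT and hemizygous, and that of Angpt2 for homozygous over hemizygous.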
